A study of Mus musculus with 16 samples.

Results

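In miRNA registries most mature miRNAs carry the suffix -5p or -3p, which says which arm of the hairpin precursor the RNA was cut from. Here 45 of the 1978 mouse miRNA names in the deposited counts were examined because they carry no such suffix. They were chosen by name and by count, with at least 10 counts in at least 4 of the 16 libraries. The selection left out let-7j, miR-484 and names beginning with miR-297, miR-344, miR-378, miR-466, miR-467 or miR-669. Without a count minimum, 323 names had no suffix. The 16 libraries came from primary mouse forebrain neurons cultured around birth, all of them transduced with lentivirus, in 4 groups of 4. One group received an empty vector (Empty_Vector) and the second a vector with a small-hairpin RNA (shRNA). The other groups are named for a hairpin with 2 (shRNA_2bp) and 5 (shRNA_5bp) changed bases. Strain, days in culture, hairpin target and promoter are not given in the sources used here. By its title the series asks whether small hairpins disturb miRNAs independently of their target. The labels do not say whether the replicates were separate cultures or animals, so p-values measure only the spread between these libraries, which may be technical.

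A canonical miRNA is cut from a hairpin by Drosha and Dicer, loaded into an Argonaute protein, and finds messenger RNAs mainly through its seed, bases 2 to 8. A registry name with no suffix usually marks an entry for which a single arm was on record. Several such entries have the letters of other abundant RNAs, among them transfer RNA, small nucleolar RNA (snoRNA, which guides the chemical modification of ribosomal RNA) and the short interspersed repeats B1 and B2, and a short read of such an RNA is counted under the miRNA name.

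Library totals were 2.76 to 11.1 M counts (M for 1000000) with the empty vector and 5.30 to 8.06 M with the shRNA. They were 1.18 to 2.10 M with shRNA_2bp and 0.832 to 2.50 M with shRNA_5bp, below every library of the other groups, so depth and group cannot be told apart in comparisons across that gap. The summed level of 5 neuronal miRNAs was 488800 to 524100 CPM with the empty vector, 375800 to 427300 with the shRNA, 322500 to 351100 with shRNA_2bp and 297100 to 350900 with shRNA_5bp. CPM is the count per 1000000 counts of the library total after trimmed-mean scaling. All 5 neuronal markers were detected in every group. The sum was weighted toward miR-128-3p, 1 of the 5, and levels of the single markers are not given here. With miR-128-3p left out of the library totals, the mean share of counts held by the 45 names was higher. It went from 0.158% to 0.258% with the empty vector and from 0.205% to 0.307% with the shRNA. With shRNA_2bp it went from 0.396% to 0.526%, and with shRNA_5bp from 0.601% to 0.816%. A lower sum therefore need not mean that all 5 markers were lower. For 4 vessel and fibroblast markers the summed level was 703 to 809, 664 to 764, 1164 to 1394 and 1114 to 1332 CPM in the same order, with 1 of the 4 at 0 in the empty-vector group. For 4 microglial and leukocyte markers it was at most 3.27 CPM in any library, with 2 or 3 of the 4 at 0 in each group, and for 2 erythroid markers at most 2.46 CPM, with 1 of the 2 at 0 in each group. Both oligodendrocyte markers were detected in each group and summed to 1.151 to 13.9 CPM. The part of these markers in the results below was not tested. In bulk RNA, fewer cells of a type and less RNA per cell cannot be told apart.

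RefSeq gave a mature sequence on GRCm38.p6 for 37 of the 45 names. The other 8 are miR-1194, miR-3470a, miR-3970, miR-5099, miR-696, miR-709, miR-714 and miR-28c. The sequences below are printed 5′ to 3′ with the seed in capitals. The first set has letters of the B1 and B2 repeats, by background knowledge. No repeat annotation was used here.
miR-3470b: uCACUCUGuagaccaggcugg
miR-1195: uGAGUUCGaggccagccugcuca
miR-706: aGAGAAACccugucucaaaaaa
miR-3473a: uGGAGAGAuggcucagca
miR-3473b: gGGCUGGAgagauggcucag
miR-3473e: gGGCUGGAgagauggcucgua
miR-5128: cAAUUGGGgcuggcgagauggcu
The registered position of miR-3470b is chr16:44013885-44013905 on the plus strand, in an intron of Gramd1c but on the opposite strand from it. The whole mature sequence also stood in the transcripts of 546 genes in sense and 497 in antisense. A stretch of 18 bases of miR-1195 (registered at chr17:70860558-70860580, minus strand) stood in 626 genes in sense and 649 in antisense. For miR-706 (chr6:120034290-120034311, minus strand, in an intron of Wnk1) the figures were 401 and 483. For miR-3473b (chr10:41670774-41670793, plus strand, in an intron of Ccdc162 on the other strand) they were 512 and 538. Reads of such letters cannot be traced to the registered position. miR-3473b and miR-3473e (chr5:31667296-31667316, minus strand, in an intron of Rbks) share the seed GGCUGGA, and no other name in the RefSeq set had it.

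The second set is shown because the registered position or the letters overlap with another annotated small RNA.
miR-3535: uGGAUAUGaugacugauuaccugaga
miR-5121: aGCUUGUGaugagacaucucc
miR-6481: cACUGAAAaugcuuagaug
miR-1983: cUCACCUGgagcauguuuucu
miR-3535 lies at chr1:86352062-86352087 on the minus strand, whole within the snoRNA gene Gm24148, inside Ncl, which encodes nucleolin. miR-5121 lies at chr7:45126925-45126945 on the minus strand, whole within the snoRNA gene Snord33, inside Rpl13a, a ribosomal protein gene. miR-6481 is registered at chr3:99199367-99199385 on the minus strand, in an intron of Wars2 that runs the other way. All its letters also stand in mt-Tf, the mitochondrial transfer RNA for phenylalanine. miR-1983 lies at chr13:21896930-21896950 on the minus strand, where RefSeq annotates n-TItat14, a transfer RNA gene for isoleucine.

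The third set holds other names whose levels are described below. The letters of miR-6538, miR-5126, miR-2137 and miR-6240 are rich in G and C.
miR-690: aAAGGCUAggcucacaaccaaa
miR-6538: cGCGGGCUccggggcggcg
miR-5126: gCGGGCGGggccgggggcgggg
miR-2137: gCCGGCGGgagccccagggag
miR-6240: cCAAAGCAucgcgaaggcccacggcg
miR-6238: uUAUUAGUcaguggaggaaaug
miR-6239: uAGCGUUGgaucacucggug
miR-3968: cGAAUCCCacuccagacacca
miR-690 lies at chr16:28599940-28599961 on the minus strand, in an intron of Fgf12, and miR-6538 at chr12:26414970-26414988 on the minus strand, in an intron of Rnf144a. miR-5126 lies at chr1:84695890-84695911, on the opposite strand from an exon of Dner, and miR-2137 at chrX:72992113-72992133, in an intron of Zfp185. miR-6240 lies at chr5:114851973-114851998 and miR-6238 at chr7:53891796-53891817, both outside annotated genes. miR-6239 lies at chr14:117953768-117953787, on the opposite strand from an intron of Gpc6. miR-3968 lies at chr11:115447969-115447989, on the opposite strand from an exon of Trim80. G and C made up 100% of miR-5126, 94.7% of miR-6538, 85.7% of miR-2137 and 69.2% of miR-6240. miR-6240 has the seed CAAAGCA, as does miR-330-3p.

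Over all 37 names, 8 (21.6%) shared at least 18 bases with an annotated snoRNA, mitochondrial RNA or other small non-coding RNA, against 10 of 468 other miRNAs at the same count (2.14%). A stretch of 18 bases stood in at least 100 annotated genes for 6 of the 37 names (16.2%) and for 1 of the 468 (0.214%). Those 6 were miR-1195, miR-3470b, miR-3473a, miR-3473b, miR-3473e and miR-706. Median GC content was 57.1% for the 37 and 50% for the 468. These are descriptions of the sequences. Precursor ribosomal RNA and nuclear transfer RNA sequences were not searched here.

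The suffix-free names took up a small share of each library that differed by group. Their summed share of all counts was 0.158% ± 0.014 (SD, n = 4) with the empty vector, from 0.146% to 0.174%. It was 0.205% ± 0.011 with the shRNA (0.194% to 0.215%), 0.396% ± 0.028 with shRNA_2bp (0.366% to 0.431%) and 0.601% ± 0.15 with shRNA_5bp (0.417% to 0.749%). The empty-vector, shRNA and shRNA_2bp libraries did not overlap with each other, and the deepest shRNA_5bp library (replicate 2) lay just below the highest shRNA_2bp library. miR-5099, the most abundant of the names, weighed most in shRNA_2bp. Without it the mean shares were 0.104%, 0.125%, 0.179% and 0.471%. These shares are a description with no test, since the same counts chose the names.

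**Figure D1:**
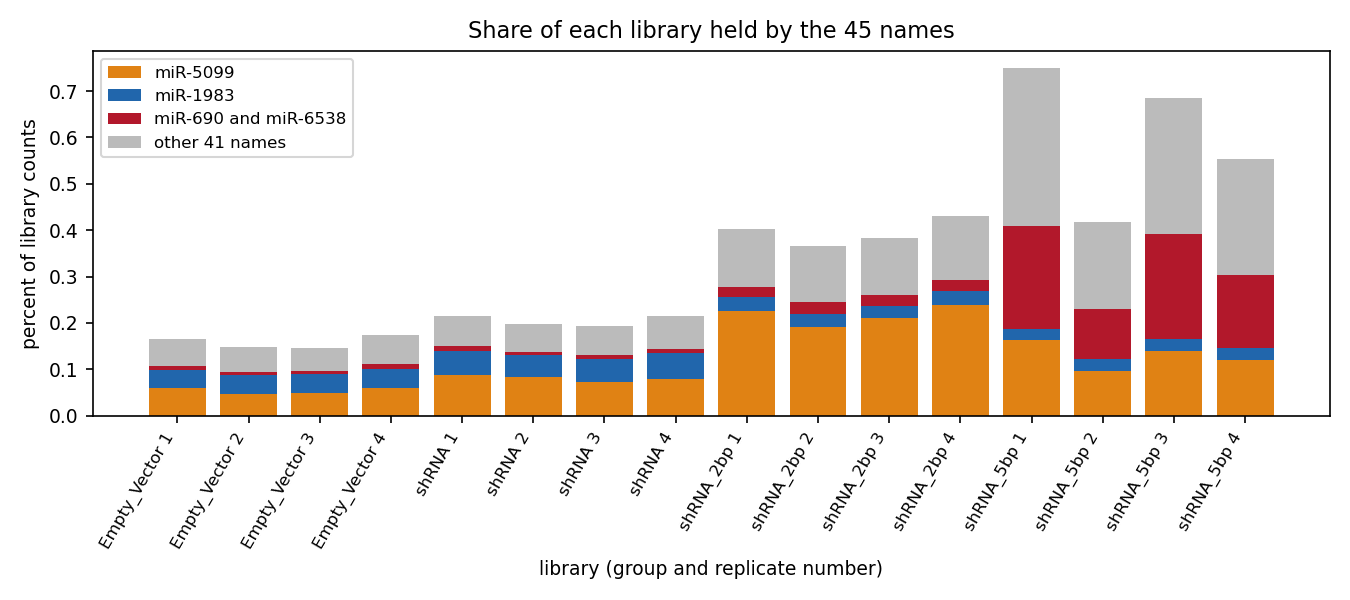
Share of each library's counts (percent, y axis from 0) held by the 45 suffix-free names, stacked as miR-5099, miR-1983, miR-690 with miR-6538, and all others, for the 16 libraries by group. The bars rise from 0.146% to 0.174% with the empty vector to 0.417% to 0.749% with shRNA_5bp, and miR-690 with miR-6538 form a visible layer in shRNA_5bp.

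Names that had entered through a single group had to be high in it, so tests are given for the 35 names that still met the count minimum when any one group was left out. A name is said to have risen or fallen when its adjusted p was below 0.05 in edgeR's quasi-likelihood test, with Benjamini-Hochberg adjustment over the 483 miRNAs tested in each comparison. Changes are log2 differences from that model with their standard error (SE). Comparisons that share a group share its libraries, so their values are not independent. Among all 483 miRNAs, the libraries of both groups did not overlap for 286 with shRNA_2bp against the empty vector. The number was 244 with shRNA_5bp and 159 with the shRNA. Lack of overlap was also a condition for choosing some of the names described below.

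**Figure D2:**
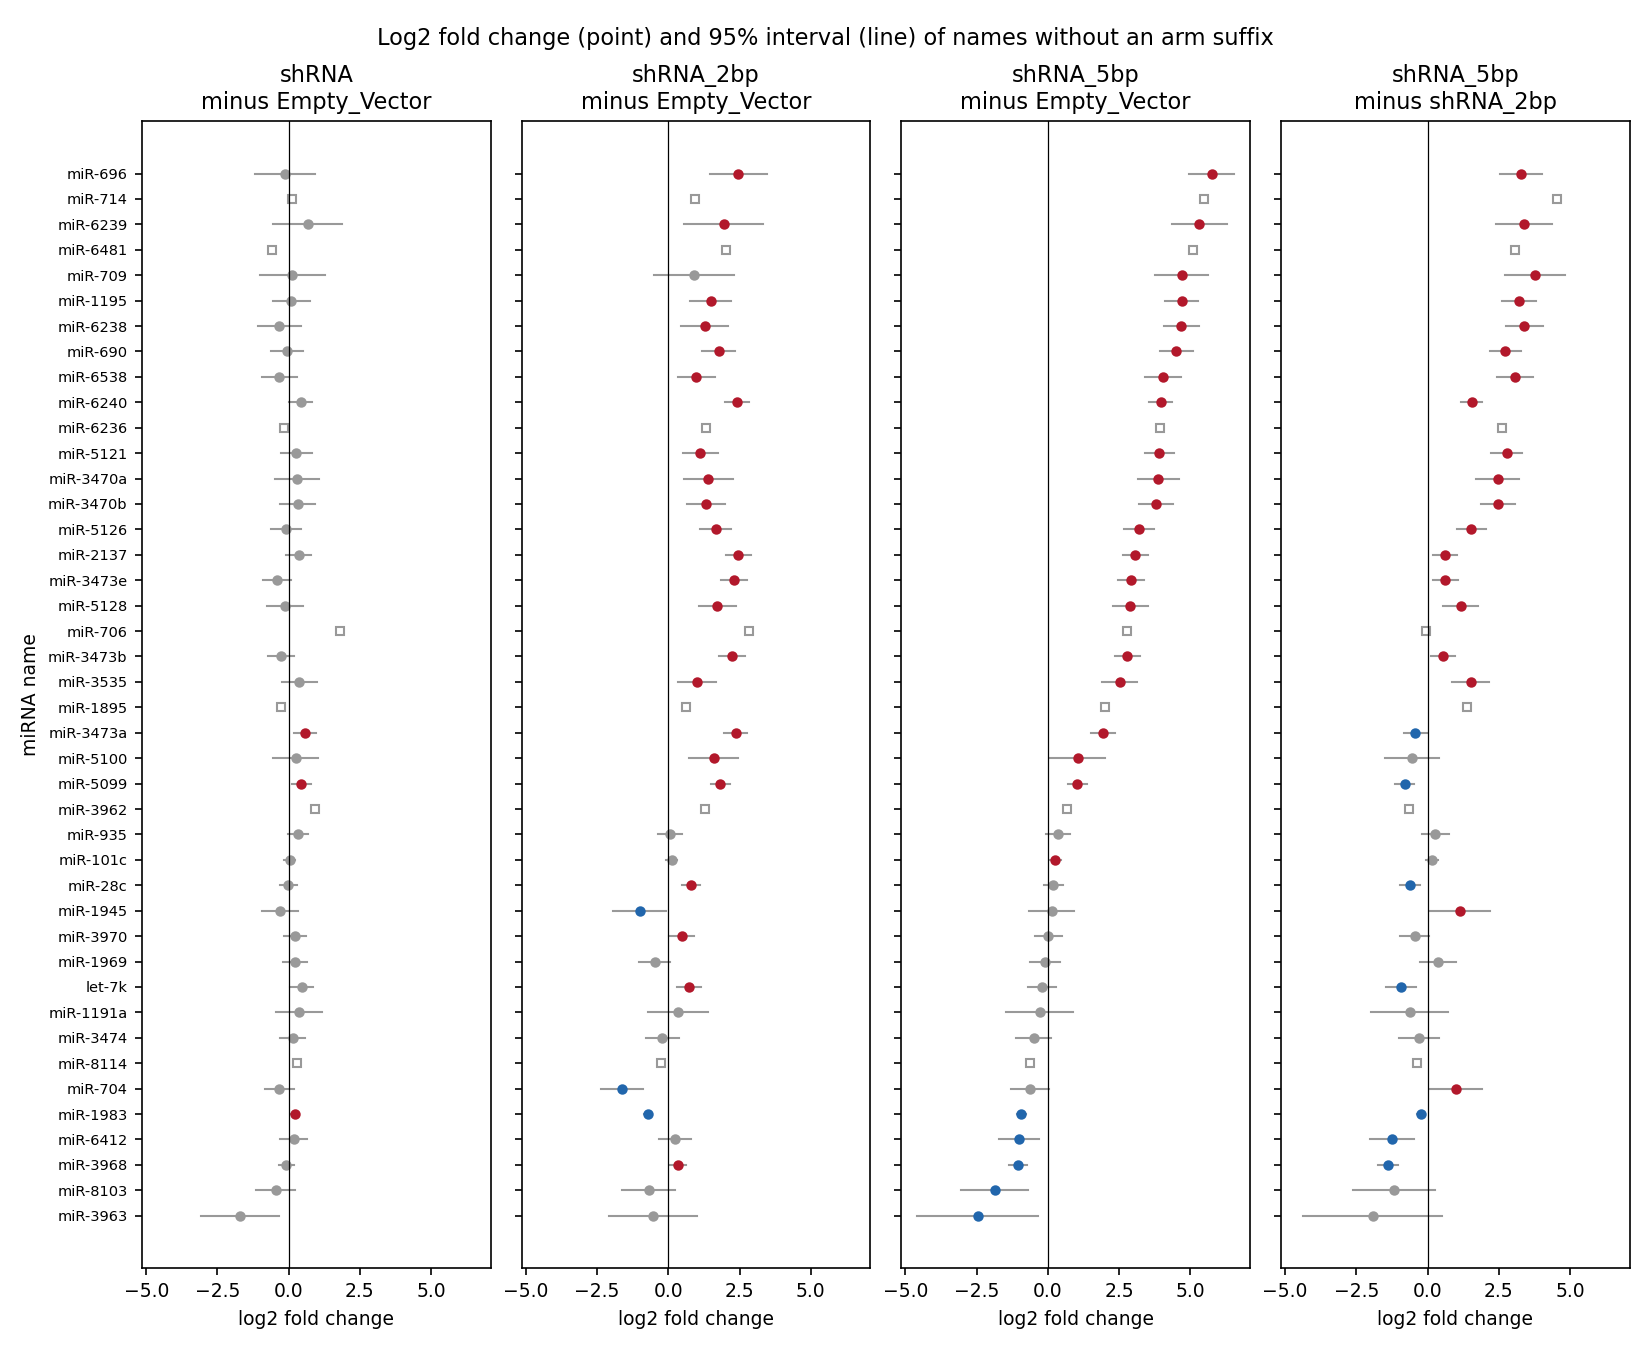
Log2 difference for the 42 suffix-free names that passed the filter on low counts, in 4 comparisons (x axis, log2 scale, bars are 95% intervals where a test was made). Red circles rose, blue circles fell, gray circles did not pass, and open squares are names given no test. The red circles lie farthest right in the panel of shRNA_5bp against the empty vector, at up to 5.75.

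With the unmodified shRNA few of the names differed from the empty vector. Of 35 names, 3 rose, none fell and 32 did not pass, while 34.8% of all 483 miRNAs were called, 19.7% as risen and 15.1% as fallen. The median log2 difference was 0.14 for the 35 names and 0.04 for all 483. miR-3473a measured 11.7, 10.1, 12.8 and 11.8 CPM in empty-vector replicates 1 to 4 and 14.5, 18.5, 14.0 and 21.2 CPM in the shRNA libraries. All 4 shRNA libraries lay above all 4 controls. The difference was 0.57 ± 0.18 (SE, edgeR adjusted p = 0.0117). miR-5099 rose by 0.44 ± 0.15 (adjusted p = 0.0385) and miR-1983 by 0.20 ± 0.06 (adjusted p = 0.0108). Of 21 alternative settings, 6 lost the call for miR-5099 (adjusted p up to 0.149) and 5 that for miR-1983 (adjusted p up to 0.172). Without shRNA replicate 4 the call for miR-3473a was lost too (adjusted p = 0.0657). Without shRNA_2bp replicate 3, or without shRNA_2bp replicate 4, 1 name had risen. Without empty-vector replicate 3, shRNA replicate 2 or shRNA_5bp replicate 4 there were 5, and 1 name had fallen without empty-vector replicate 2 or 3. With library-size scaling 7 names had risen, and with the replicate number as a block 5 had. In that fit, with RLE scaling and with DESeq2, 1 name had fallen. The name that passed as fallen was miR-3963 (-1.70 ± 0.63, adjusted p = 0.0506 with all libraries).

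In the shRNA_2bp libraries most of the names were higher than with the empty vector. Of 35, 23 rose, 3 fell and 9 did not pass, against 33.3% risen and 32.3% fallen among all 483 tested (65.6% called). The median difference was 1.01 for the names and 0.01 for all 483. Differences of the 23 risen names ran from 0.33 for miR-3968 to 2.46 for miR-696. The fallen names were miR-704 (-1.64), miR-1945 (-1.01) and miR-1983 (-0.70). The libraries of miR-1945 overlapped, and its fall (edgeR adjusted p = 0.0373) was lost in 8 of the 21 settings, at an adjusted p of up to 0.148.

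miR-5099 measured 663, 539, 526 and 642 CPM with the empty vector and 2222, 1820, 2096 and 2298 CPM with shRNA_2bp, and rose by 1.83 ± 0.16 (edgeR adjusted p = 1.12e-07). With shRNA_5bp it stood at 1572, 895, 1342 and 1058 CPM, below all shRNA_2bp libraries and above all controls. It was 1 of 4 names, of the 35, whose raw counts were higher in every shRNA_2bp library than in any shRNA_5bp library. The others were let-7k, miR-3968 and miR-3963, the last with 9 to 17 counts against 0 to 5. Among all 483 miRNAs the share was 6%.

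The miR-3473 names, with B2 letters, rose in both mutated-hairpin groups. miR-3473b stood at 22.5, 14.7, 14.0 and 20.6 CPM with the empty vector, at 99.4, 69.2, 68.8 and 107 CPM with shRNA_2bp and at 169.6, 90.2, 147 and 106 CPM with shRNA_5bp. Both mutated-hairpin groups lay above all controls, and they overlapped with each other. The rise was 2.24 ± 0.20 (adjusted p = 2.26e-09) with shRNA_2bp and 2.78 ± 0.20 (adjusted p = 8.96e-11) with shRNA_5bp. miR-3473e, with the same seed, stood at 11.1 to 17.1 CPM in the controls, 57.0 to 90.8 CPM with shRNA_2bp and 72.8 to 155 CPM with shRNA_5bp. It rose by 2.30 ± 0.21 with shRNA_2bp and 2.93 ± 0.21 with shRNA_5bp. miR-3473a stood at 49.8 to 66.7 CPM in shRNA_2bp and 35.3 to 61.0 CPM in shRNA_5bp, which overlap, against 10.1 to 12.8 CPM in the controls. Its rise was 2.36 ± 0.18 and 1.93 ± 0.19 in the same order.

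miR-2137 measured 23.9 to 32.6 CPM with the empty vector, 127.7 to 182 CPM with shRNA_2bp and 169 to 308 CPM with shRNA_5bp. It rose by 2.45 ± 0.20 (edgeR adjusted p = 3.74e-09) and 3.07 ± 0.20 (adjusted p = 2.63e-10). miR-5128, also in the first set, stood at 4.39 to 10.1, 17.2 to 32.7 and 33.4 to 67.0 CPM, and rose by 1.72 ± 0.30 and 2.88 ± 0.28.

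The shRNA_5bp libraries held the largest differences from the empty vector. Of 35 names, 21 rose, 5 fell and 9 did not pass, against 31.5% risen and 26.7% fallen among all 483 (58.2% called). The median was 1.93 for the names and 0.06 for all 483. Of the 35 names, 17 rose over 4-fold, beside 6% of all 483 miRNAs. When libraries were left out, 19 to 21 names had risen. The libraries of miR-5100 overlapped, and its rise (1.04 ± 0.44, edgeR adjusted p = 0.0437) was lost in 12 of the 21 settings, at an adjusted p of up to 0.258.

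miR-690 measured 41.01, 32.9, 28.3 and 49.4 CPM with the empty vector, 44.3, 40.0, 31.0 and 34.5 CPM with the shRNA, 116, 151, 123.5 and 136 CPM with shRNA_2bp, and 1127, 546, 1163 and 711 CPM with shRNA_5bp. The empty-vector and shRNA libraries overlapped, and each mutated-hairpin group lay above them and apart from the other. Against the empty vector the rise was 1.77 ± 0.26 (edgeR adjusted p = 4.98e-05) with shRNA_2bp and 4.50 ± 0.26 (22.6-fold, adjusted p = 3.74e-09) with shRNA_5bp. miR-6538 went from 44.2, 32.9, 45.1 and 65.1 CPM with the empty vector to 89.2, 81.4, 111 and 91.6 CPM with shRNA_2bp and 994, 465.9, 1007 and 689 CPM with shRNA_5bp. Its rise was 0.98 ± 0.30 (adjusted p = 0.0117) with shRNA_2bp and 4.05 ± 0.29 (adjusted p = 2.93e-08) with shRNA_5bp. Without shRNA_2bp replicate 3 the smaller rise no longer passed (0.82, adjusted p = 0.0510), and likewise with no filter on low counts (0.86, adjusted p = 0.0602).

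**Figure D3:**
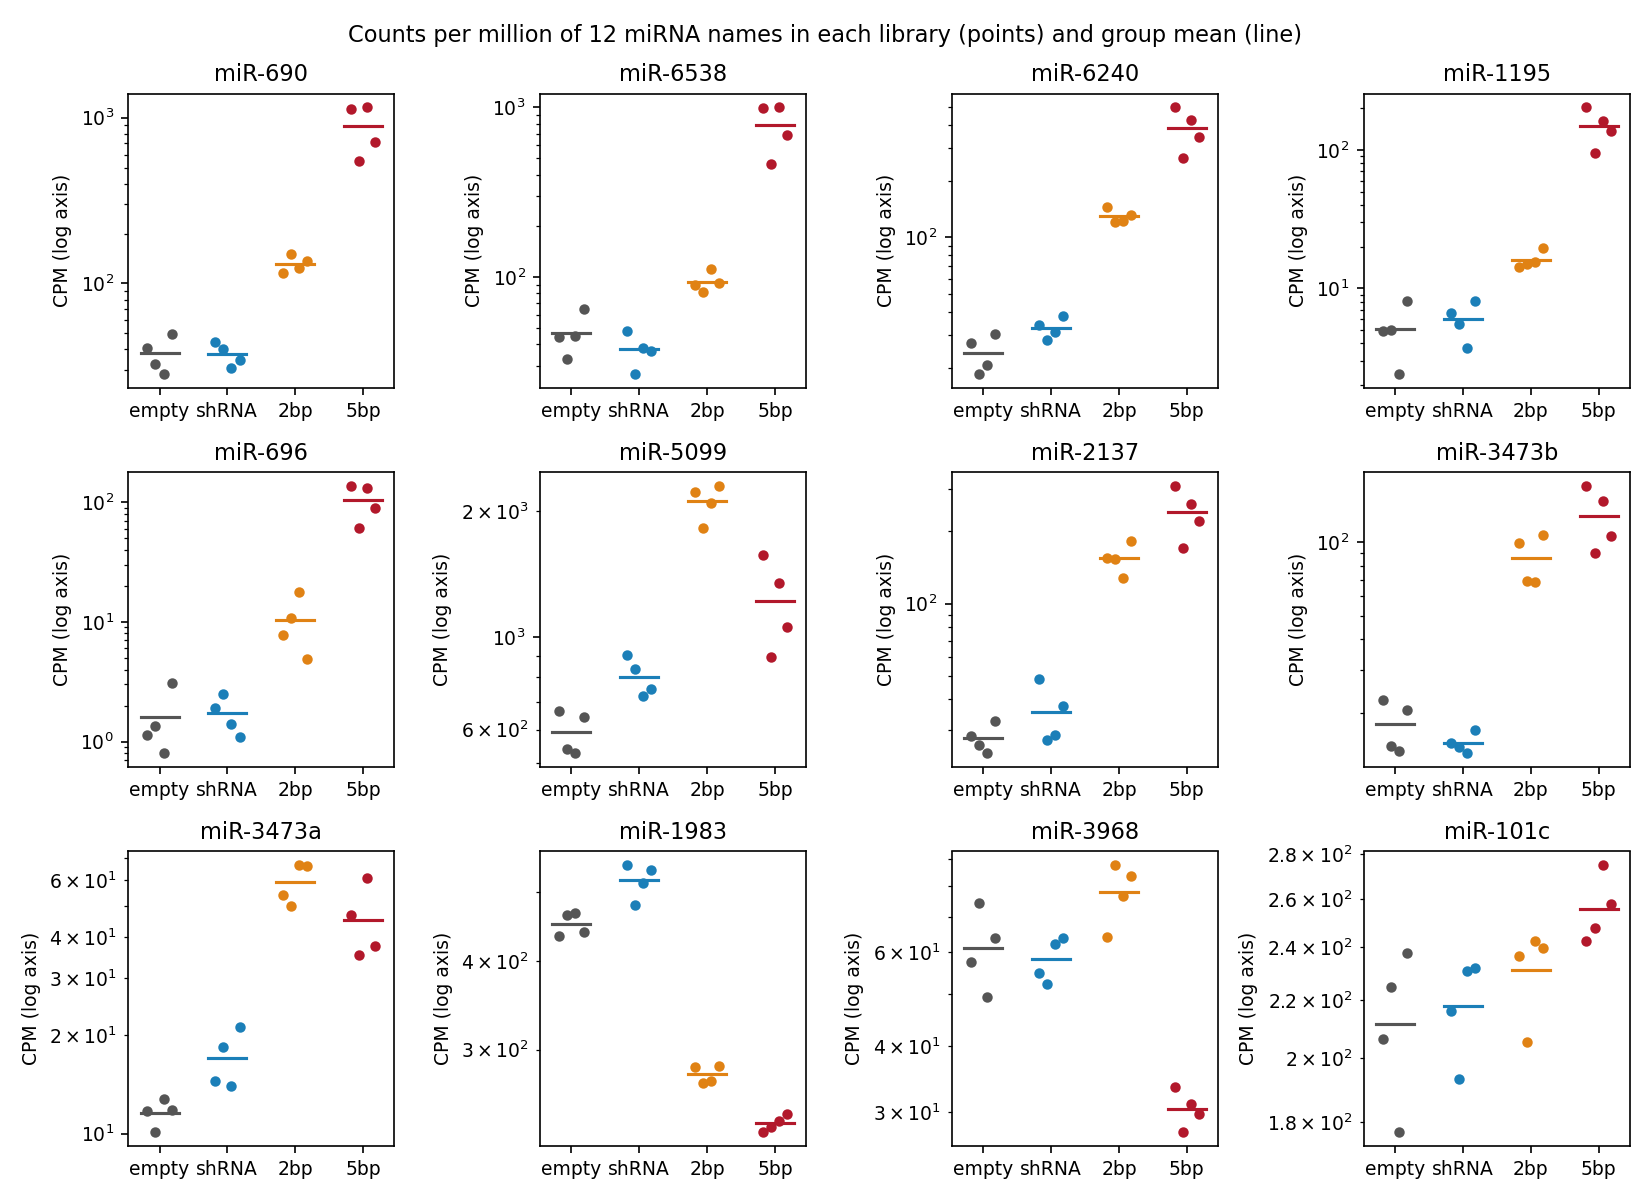
CPM on a log axis in each of the 16 libraries for 12 suffix-free names, in 4 groups of 4 libraries, each point 1 library. miR-690 and miR-6538 reach 465.9 CPM or more in every shRNA_5bp library, while miR-1983 and miR-3968 lie lower there than with the empty vector and miR-101c lies between 177 and 275 CPM throughout.

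Of the doubtful names, miR-696 had the largest rise. It stood at 1.13, 1.35, 0.798 and 3.09 CPM (2 to 32 counts) with the empty vector and 7.78, 10.9, 17.7 and 4.91 CPM with shRNA_2bp. With shRNA_5bp it reached 137.1, 61.3, 132 and 89.4 CPM, or 115 to 165 counts. All libraries of each mutated-hairpin group lay above all controls. The rise was 2.46 ± 0.46 (edgeR adjusted p = 1.04e-04) and 5.75 ± 0.36 (53.9-fold, adjusted p = 5.17e-11).

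miR-709 stood at 1.35, 1.56, 1.60 and 1.93 CPM with the empty vector, at 1.80, 1.36, 2.84 and 8.18 CPM with shRNA_2bp, and at 68.0, 23.8, 61.0 and 31.0 CPM with shRNA_5bp. The shRNA_2bp libraries overlapped with the controls (0.91 ± 0.65, edgeR adjusted p = 0.225). The shRNA_5bp libraries lay above all others, and the rise was 4.69 ± 0.43 (adjusted p = 6.79e-09). miR-714 gave 30, 37, 28 and 31 counts in the shRNA_5bp libraries (13.7 to 32.2 CPM) and 0 to 8 counts in the other 12. It met the count minimum through shRNA_5bp alone, so this contrast was given no test.

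miR-1195 measured 4.96, 4.99, 2.39 and 8.12 CPM with the empty vector, 14.4, 14.9, 15.6 and 19.6 CPM with shRNA_2bp, and 94.7 to 205 CPM with shRNA_5bp. These groups were stepped and did not overlap, while the shRNA libraries (3.68 to 8.11 CPM) overlapped with the empty vector. Against the empty vector the rise was 1.48 ± 0.33 (edgeR adjusted p = 4.93e-04) with shRNA_2bp and 4.69 ± 0.27 (adjusted p = 3.47e-12) with shRNA_5bp. miR-3470b, also with B1 letters, rose by 1.33 ± 0.31 and 3.79 ± 0.27, from 5.10 to 9.47 CPM in the controls to 58.7 to 147 CPM with shRNA_5bp.

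miR-6240 stood at 27.3, 18.5, 20.7 and 30.2 CPM with the empty vector, 146, 121, 122 and 131 CPM with shRNA_2bp, and 499, 264, 425 and 346 CPM with shRNA_5bp. It rose by 2.41 ± 0.19 (edgeR adjusted p = 1.33e-09) and 3.95 ± 0.19 (adjusted p = 1.23e-12), with no overlap among these groups. miR-6238 rose by 1.28 ± 0.38 and 4.68 ± 0.29, from 2.18 to 4.73 CPM with the empty vector to 44.9 to 132 CPM with shRNA_5bp. miR-6239 had 2, 10, 0 and 17 counts with the empty vector and 73, 66, 40 and 54 with shRNA_5bp. It rose by 1.94 ± 0.63 with shRNA_2bp, a call that was lost without shRNA_2bp replicate 1 (adjusted p = 0.0645), and by 5.32 ± 0.45 with shRNA_5bp.

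Both names that lie within snoRNA genes rose in both mutated-hairpin groups. miR-3535 stood at 12.4 to 28.1 CPM with the empty vector, 31.1 to 42.5 CPM with shRNA_2bp and 60.1 to 151 CPM with shRNA_5bp, and rose by 1.01 ± 0.30 (edgeR adjusted p = 0.00796) and 2.52 ± 0.28 (adjusted p = 8.17e-07). miR-5121 stood at 3.74 to 7.05, 10.9 to 14.9 and 54.2 to 127 CPM, and rose by 1.13 ± 0.29 (adjusted p = 0.00117) and 3.91 ± 0.24 (adjusted p = 4.82e-14). The name with letters of mitochondrial transfer RNA, miR-6481, had 1 to 14 counts in the first 12 libraries and 65, 77, 32 and 44 with shRNA_5bp, and was given no test. miR-5126, with no letters but G and C, rose by 1.66 ± 0.25 and 3.20 ± 0.24.

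The name that overlaps an annotated transfer RNA gene fell in both mutated-hairpin groups. miR-1983 measured 434, 464, 468 and 440.0 CPM with the empty vector, 547, 481, 516 and 538 CPM with the shRNA, 284, 269.6, 271 and 285 CPM with shRNA_2bp, and 229.5, 234, 238 and 244 CPM with shRNA_5bp. The 4 groups did not overlap, and the spread within each was small. Against the empty vector it fell by 0.70 ± 0.07 (edgeR adjusted p = 1.97e-10) with shRNA_2bp and by 0.93 ± 0.07 (adjusted p = 1.42e-12) with shRNA_5bp. miR-3968 stood at 57.5, 74.5, 49.4 and 63.8 CPM with the empty vector and 64.1, 87.8, 76.6 and 83.5 CPM with shRNA_2bp, which overlap. With shRNA_5bp it stood at 33.5, 27.5, 31.1 and 29.8 CPM, below all others, and had fallen by 1.05 ± 0.15 (adjusted p = 6.56e-07). Its rise with shRNA_2bp, 0.33 ± 0.13 (adjusted p = 0.0291), was lost in 8 of the 21 settings at an adjusted p of up to 0.280. The other names fallen with shRNA_5bp were miR-3963 (-2.47), miR-8103 (-1.86) and miR-6412 (-1.02). They rested on 0 to 17 counts a library there, and without shRNA_5bp replicate 2, the deepest, 3 names had fallen instead of 5. miR-3963 stood at 26.8, 2.18, 4.79 and 8.60 CPM with the empty vector, with replicate 1 far above the others. Its fall (adjusted p = 0.0436) was lost in 10 of the 21 settings, at an adjusted p of up to 0.146.

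Depth moved with the levels inside the shRNA_5bp group. Totals there ran from 0.832 to 2.50 M. The 21 risen names summed to 6635, 3413, 6028 and 4456 CPM in replicates 1 to 4, and the deepest library (replicate 2) was the lowest for 19 of the 21. In the empty-vector group, whose totals differed 4.035-fold, the deepest library was the lowest for 0 of these 21 names. In shRNA it was the lowest for 2 of 21 and in shRNA_2bp for 12. Within a group all 21 names were read from the same libraries, so they are not 21 separate observations. The matching share among all miRNAs tested is not given here. Whether the pattern is particular to these names therefore cannot be told. The raw counts of the 21 names in shRNA_5bp summed to 6533, 9193, 5239 and 7329. There the highest library held a median of 1.81 times the counts of the lowest per name, while the totals differed 3.001-fold. The 5 fallen names summed to 269 to 278 CPM, of which miR-1983 alone held 229.5 to 243.8 CPM. Per name, their highest library held a median of 3.353 times the CPM of the lowest, against 2.167 for the risen names. The median leaves out miR-3963, which had 0 counts in shRNA_5bp replicate 4. The deepest library was the lowest for 2 of the 5. The part of depth in the rises was not tested.

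**Figure D4:**
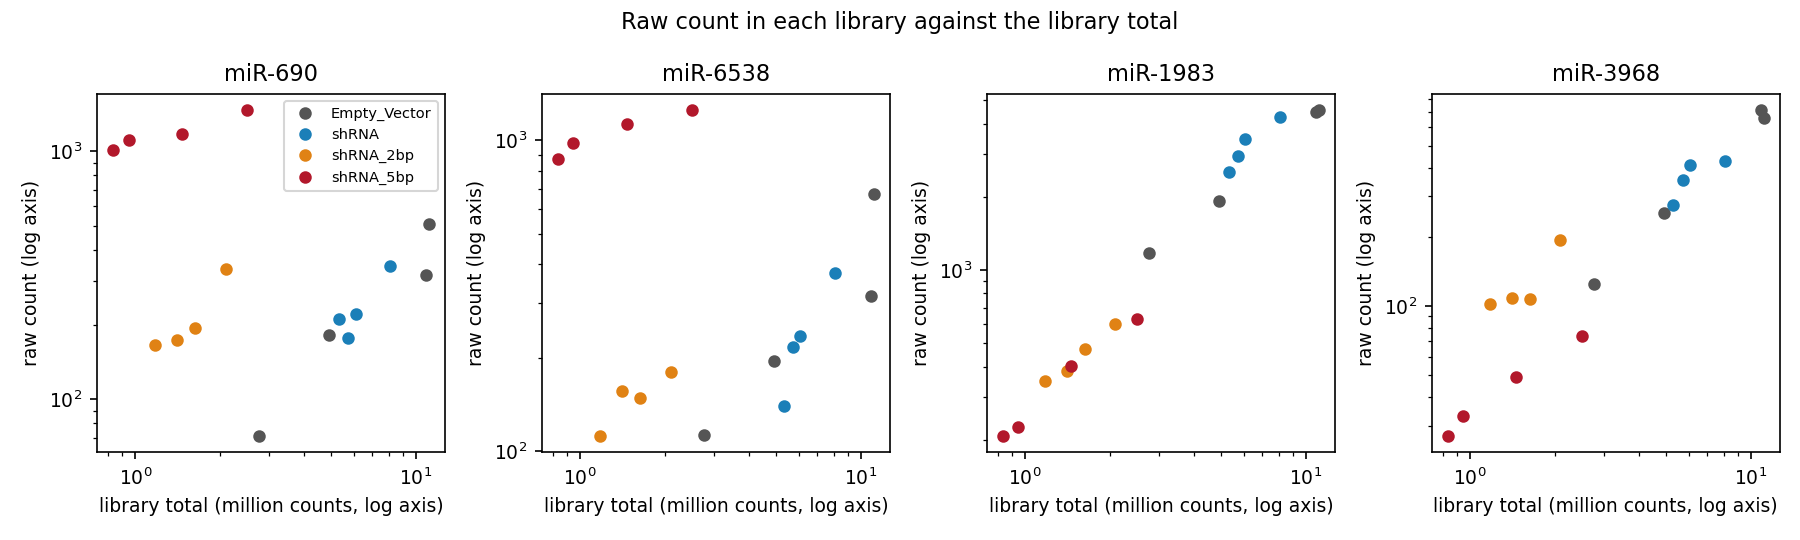
Raw count (y axis, log) against the library total (x axis, log) for miR-690, miR-6538, miR-1983 and miR-3968, 1 point a library, marked by group. For miR-690 and miR-6538 the shRNA_5bp points lie above the shRNA_2bp points at the same totals, at 875 counts or more against 334 or fewer.

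The totals of the 2 mutated-hairpin groups overlapped, so raw counts could be compared between them. For 14 of the 35 names every shRNA_5bp library held more raw counts than every shRNA_2bp library, for 4 the reverse, and 17 overlapped. Among all 483 miRNAs the shares were 8.49% and 6%. miR-6538 had 875 to 1255 counts with shRNA_5bp and 112 to 180 with shRNA_2bp. miR-690 had 1011 to 1470 and 166 to 334, miR-696 115 to 165 and 6 to 25, and miR-6240 369 to 712 and 160 to 267. In the fit, 19 of the 35 names were higher with shRNA_5bp than with shRNA_2bp, 7 were lower and 9 did not pass, against 36.9% and 22.8% among all 483 (59.6% called). The median was 0.61 for the names and 0.16 for all 483. The largest differences were miR-709 (3.78 ± 0.49, edgeR adjusted p = 1.13e-06), miR-6238 (3.40 ± 0.30), miR-6239 (3.38 ± 0.46), miR-696 (3.29 ± 0.34), miR-1195 (3.21 ± 0.27) and miR-6538 (3.07 ± 0.29). miR-690 differed by 2.73 ± 0.25 and miR-6240 by 1.55 ± 0.17. miR-3473b was higher by 0.55 ± 0.19 (adjusted p = 0.0198), a call lost in 10 of the 21 settings. miR-1945 (1.14) and miR-704 (1.00), whose libraries overlapped, lost the call in 13 and 12 settings, at an adjusted p of up to 0.251 and 0.177. When libraries were left out, 15 to 19 names were higher and 6 to 9 lower. Those lower with shRNA_5bp were miR-3968 (-1.38 ± 0.16), miR-6412 (-1.25), let-7k (-0.93), miR-5099 (-0.80 ± 0.15), miR-28c (-0.62), miR-3473a (-0.43) and miR-1983 (-0.23). The call for miR-3473a (adjusted p = 0.0429) was lost in 5 of the 21 settings, at an adjusted p of up to 0.217.

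Set against the unmodified shRNA, the libraries of both mutated hairpins again held more risen than fallen names. With shRNA_2bp, 19 names rose, 3 fell and 13 did not pass, beside 31.1% and 33.5% among all 483 (64.6% called), with a median of 1.01 against -0.01. With shRNA_5bp, 20 rose, 5 fell and 10 did not pass, beside 28.4% and 24.6% (53% called), with a median of 1.35 against -0.00. miR-696 (5.87 ± 0.36), miR-6238 (5.01 ± 0.29) and miR-6239 (4.65 ± 0.42) led the second comparison. The fallen names were miR-8103, miR-6412, miR-1983, miR-3968 and let-7k. Without shRNA_5bp replicate 2 there were 3. miR-8103 (to an adjusted p of 0.280 over the settings) and let-7k (adjusted p = 0.0896) were lost.

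A few names were near-copies of abundant suffixed miRNAs. They are printed with their copies because a short read may match both names, and how such reads were counted is not given. The counts of let-7k and miR-3962 equalled those of their copies in 0 libraries.
miR-101c: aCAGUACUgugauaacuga
miR-101a-3p: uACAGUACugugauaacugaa
let-7k: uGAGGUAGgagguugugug
let-7b-5p: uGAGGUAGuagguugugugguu
miR-3962: aGGUAGUAguuuguacauuu
let-7g-5p: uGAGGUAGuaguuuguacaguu
The miR-101c letters lie whole within miR-101a-3p, and its counts equalled those of miR-101a-3p in 13 of 16 libraries. The largest difference was 3 counts, and the totals over all libraries were 14546 and 14551. miR-28c equalled miR-28a-5p in 15 of 16 libraries (2129 and 2130 counts in all). Values under miR-101c and miR-28c are therefore not separate from those of the suffixed name. miR-101c stood at 206, 225, 177 and 238 CPM with the empty vector and 243, 248, 275 and 258 CPM with shRNA_5bp, and the small rise (0.26 ± 0.09, edgeR adjusted p = 0.0147) was lost in 12 of the 21 settings, at an adjusted p of up to 0.911. miR-28c stood at 27.5 to 32.7 CPM with the empty vector and 47.5 to 60.6 CPM with shRNA_2bp, and rose by 0.81 ± 0.15 (adjusted p = 1.9e-05). With shRNA_5bp it stood at 23.0 to 43.7 CPM (0.19 ± 0.16, adjusted p = 0.306).

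let-7k has the let-7 seed GAGGUAG and held 0.2% of the counts of let-7b-5p, to which it is 1 edit away. It rose with shRNA_2bp by 0.73 ± 0.20 (edgeR adjusted p = 0.00213), while let-7b-5p differed by -0.02. With shRNA_5bp the differences from the empty vector were -0.21 for let-7k (adjusted p = 0.444) and -0.31 for let-7b-5p. miR-3962, 1 edit from let-7g-5p, held 0.0176% of its counts.

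For 10 names values are given with no test, since they met the count minimum through 1 group or close to it. These are miR-1194, miR-1895, miR-3962, miR-497b, miR-6236, miR-6481, miR-706, miR-714, miR-8112 and miR-8114. miR-6236 had 1 to 11 counts in the first 12 libraries and 20, 21, 15 and 22 with shRNA_5bp. miR-1895 averaged 1.88 CPM ± 0.63 (SD, n = 4) with the empty vector and 7.37 ± 2.2 with shRNA_5bp, and miR-706 averaged 0.459 ± 0.21 and 3.79 ± 1.6. Group means of miR-1194, miR-3962, miR-497b, miR-8112 and miR-8114 ran from 0.634 to 5.09 CPM. Where a name had 0 counts in a library, levels of up to 3 counts were allowed. Before trimmed-mean scaling, this is 0.523 per 1000000 counts in the deepest such library and 3.61 in the shallowest. The limit covers counting error only, because PCR copies were counted without molecular identifiers. Just inside the count minimum were miR-497b, miR-706 and miR-714 at 10 counts in 4 libraries, and miR-1194 and miR-6236 in 5. Just outside were miR-1927, miR-6395 and miR-8111, in 3. miR-1191a, miR-1969, miR-3474 and miR-935 did not pass in any comparison with the empty vector, with group means of 2.15 to 26.2 CPM. miR-3470a averaged 4.24, 5.69, 12.9 and 71.3 CPM with the empty vector, shRNA, shRNA_2bp and shRNA_5bp. miR-5100 averaged 2.62 to 7.86 CPM, miR-3970 14.9 to 20.6 CPM, miR-1945 3.04 to 7.02 CPM and miR-704 3.18 to 10.6 CPM over the 4 groups.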

How the data were processed

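The authors deposited raw read counts per mouse miRNA name, 1 column for each of 16 libraries. Per the labels, 100 ng of RNA was ligated to adapters, amplified for 15 PCR cycles and selected by size. The submitters' processing notes name Bowtie 1.1.1, bcl2fastq 2.20.0.422, cutadapt 1.15, edgeR and Trim Galore 0.6.0, with the build GRCm38.p6 and no role for any of them. How reads that match several names were counted is not given in the sources used here, and this affects near-copies such as miR-101c and miR-28c.

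Counts were fitted in edgeR 4.0.16 (limma 3.58.1, R 4.3.3) over all 16 libraries, with 1 coefficient per group, trimmed-mean scaling, edgeR's filter on low counts (483 of 1978 names tested, 42 of the 45 suffix-free), a robust quasi-likelihood F test with 12 residual degrees of freedom and Benjamini-Hochberg adjustment. The SE was derived from the difference and its F statistic. The fit was tested on simulated data. Names with full values were the 5 most abundant, the 6 doubtful names in the selection, and in each of 6 comparisons up to 6 risen and 6 fallen with the largest difference, at least 10 CPM and no overlap. Names outside these, such as miR-3470b, miR-3535, miR-5121, miR-5126, miR-6481, miR-6236 and let-7k, were added after their values were seen. The names and lists were chosen with earlier results of these data known. Mature sequences came from RefSeq, and were searched in GENCODE M21 transcripts.

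Alternatives were library-size and RLE scaling, DESeq2 1.42.0, no filter on low counts, the replicate number as a block, and each library left out. Same-numbered libraries deviated together in every pair of shRNA_2bp and shRNA (r = 0.165 to 0.224 over 361 miRNAs). The labels do not say what the number marks.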

Additional observations from a re-analysis of the deposited data

Results flagged for a closer look

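For 19 names, 76 groups of 4 libraries were examined by Dixon's gap ratio for a library far from the other 3, and 3 were found. By its critical value, chance flags about 1 in 20 such groups. miR-101c measured 205.4 CPM in shRNA_2bp replicate 2, while the other 3 libraries of that group lay between 236.5 and 242.7 CPM. miR-709 measured 0.3504 CPM in shRNA replicate 3, where 2 reads were counted, against 2.179 to 2.339 CPM in the others. miR-28c measured 26.29 CPM in shRNA replicate 2 against 30.41 to 31.01 CPM.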

How the results depend on the processing

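Over the 85 calls of the names with full values, 21 settings gave 1785 values, of which 1718 stayed on the same side of the threshold, 67 no longer passed and 0 changed direction. Over all tested names, 25 calls were lost in at least 1 setting. In the comparison of shRNA with the empty vector, the number of risen names was 7 with library-size scaling, and 1 to 5 when libraries were left out. The number of fallen names there was 1 with RLE scaling and with DESeq2, and 0 to 1 when libraries were left out. For shRNA_5bp the number of fallen names ran from 3 to 6 against the empty vector and from 3 to 6 against the shRNA when libraries were left out. With the replicate block, 5 names rose and 1 fell in shRNA against the empty vector, where the lowest correlation of same-numbered libraries was 0.0959, and every library correlated best with its own number. The block changed none of the 85 calls, and the comparison of shRNA_2bp with shRNA gave 20 risen and 3 fallen names with it. Whether same-numbered libraries are pairs is not known from the labels. The cause of these shifts was not tested. Left out of the total, miR-128-3p raised the summed shares to 0.258%, 0.307%, 0.526% and 0.816% (empty vector, shRNA, shRNA_2bp, shRNA_5bp). Without miR-5099 they were 0.104%, 0.125%, 0.179% and 0.471%. At 20 shared bases, 5 of 37 names matched other small RNA, and 9 within 2 edits, a match chosen after seeing the data. Depth limits names with few counts, above all in the shRNA_2bp and shRNA_5bp libraries.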
